A study of Mus musculus with 2 samples.

Results

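The genes of the mitotic spindle, kinetochore and condensin machinery were described in untransformed mouse myeloid progenitors. They were 50 genes chosen by name, and all 50 were found by an exact match of their symbols among the 23988 genes of the table. The series title concerns leukemia cells driven by HOXA9 and MEIS1, which were not analysed here. The labels give 1 group of 2 libraries, replicate 1 and replicate 2. Both came from bone marrow of C57BL/6 mice, freed of cells that carry lineage markers (Lin-), and were kept for 7 days in a myeloid culture with IL3, SCF and IL6 and had no further treatment. No mutant, transgene or control group enters the comparison. The labels do not say whether the libraries came from separate animals or cultures, so the spread between them may be technical.

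In mitosis the duplicated chromosomes are compacted by condensin, a ring-shaped complex built on paired SMC proteins, and are attached at their centromeres through the kinetochore to the microtubules of the spindle. Kinases led by cyclin B-CDK1 start the process, the spindle assembly checkpoint holds it until every kinetochore is attached, and the anaphase-promoting complex then ends it by marking securin and cyclin B for destruction. Transcripts of these genes are known to rise late in the cell cycle, in G2 and M, so their level in a cell population depends on how many cells are cycling. Early myeloid progenitors divide, and division stops as they mature into neutrophils.

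All 50 genes reached 1 RPKM (reads scaled to gene length and to library size) in both libraries, a level reached in both by 43.5% of all genes. Their median was 28.5 RPKM in replicate 1 and 20.7 RPKM in replicate 2 as deposited, beside 4.19 and 4.75 RPKM for all genes above 0. Replicate 1 had the higher value for 42 of the 50 genes, and so had 55.9% of the 10896 genes whose means reached 1 RPKM. The median log2 ratio, replicate 1 over replicate 2 with 1 RPKM added to each value, was 0.29 for the mitotic genes, a 1.22-fold difference, and 0.05 for all those genes. On that scale, replicate 1 exceeded replicate 2 by 25% or more in 17 of the 50 genes, as it did in 19.4% of all genes. This count came to 9, against 14.1% of all genes, when trends with GC content and length were removed, and to 26, against 24.0% of all genes, when sums without the 10 highest genes were made equal. Replicate 2 exceeded replicate 1 by 25% or more in 2 of the 50, Cdc25b and Pttg1, as it did in 20.1% of all genes. None of the 50 differed by 1.5-fold in either direction, which 4.26% of all genes did upward and 11.3% downward.

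The libraries ranked the 50 genes alike. Across the genes, Pearson's r of the log2 values was 0.989 and Spearman's rho 0.981 (n = 50 genes that share both libraries). The log2 ratios spread less among them (SD 0.22) than among all 10896 genes (SD 0.55). The means of the 50 began at 5.13 RPKM and those of all these genes at 1 RPKM. The spreads were not compared at like levels. With 1 library a side there is no test of a difference between the libraries, and a sign-flip permutation test over 2 libraries cannot give an exact p below 0.5. Counting error alone was smaller than most of the differences. The 95% exact interval of the ratio lay above 1 for 41 genes, below 1 for 4 genes, namely Cdc25b, Cenpf, Prc1 and Pttg1, and spanned 1 for 5 genes, namely Bub1b, Cenpa, Kif23, Anln and Ncapd2. The matching shares of all genes were not counted, so these counts show nothing particular to the 50. The intervals also hold the library scaling fixed.

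Levels of different genes can be compared only per length, and the table departed from that. The steps between its values gave whole reads for 99.98% of the 15175 genes above 0 in both libraries, within a tolerance of 5e-05 reads plus 3e-08 of the read number, at effective library sizes of 29941063 reads in replicate 1 and 28793666 reads in replicate 2. They also gave the length by which each gene was divided. The table runs in an order that puts capitals first, whereas these lengths followed an alphabetical order that ignores case. Where the orders place different genes, the length matched a transcript of the gene named in 1.48% of 9876 genes and one of the gene at the same place in the other order in 36.0%. Of the 50 mitotic genes, 13 stood at the same place in both orders and were taken to carry their own length. For Ccna2, Ccnb1, Cdk1 and Cenpa among these, the length did not match a transcript of the gene by the rule used for the others. Their own-length values therefore rest on their place alone, and their reads are the smallest that fit. A further 25 carried a length that matched a transcript of another gene, and for 12 the length used could not be matched. The rule for these 25 was looser than that behind the shares above, which allowed 1% and no multiples. How often it matches by accident was not measured. For 5 of the 25 the match was reached only at a multiple of the smallest length that fits. The multiple was 5 for Plk1, 4 for Anln, 3 for Spc24 and 2 for Ncapd2 and Ncaph. The own-length values of these genes scale with it. Levels below are therefore given per own length for the 38 genes that allow it, as "own-length RPKM", and as deposited for the other 12. The own length of 12 of the 50 genes, Smc4 and Pttg1 among them, came from the annotation (GENCODE vM21) and not from the table. The plain ratio of the libraries does not depend on the length. With 1 RPKM added it does so slightly. With own lengths for all 50 genes, the 12 unmatched ones at their smallest reads, the median log2 ratio was 0.295. Replicate 1 then exceeded replicate 2 by 25% or more in 19 of them. The share of all genes on that scale was not counted.

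**Figure D1:**
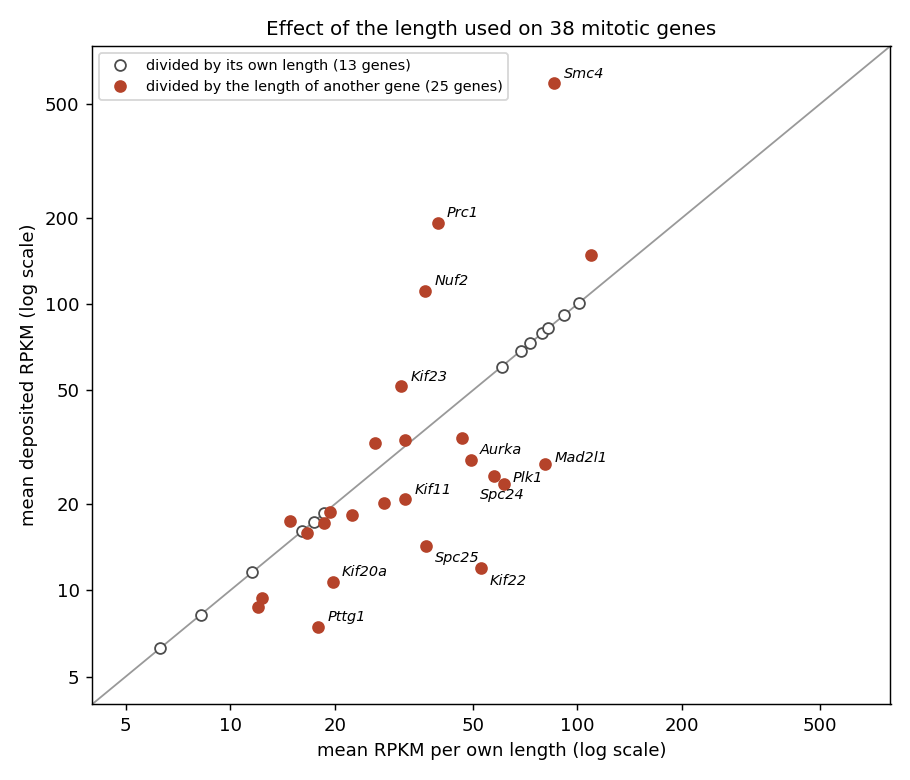
Mean deposited RPKM against mean own-length RPKM of 38 mitotic genes, both on log axes, with a line of equality; each point is the mean of 2 libraries. Open points are the 13 genes taken to carry their own length and filled points the 25 taken to carry the length of another gene. Names mark the genes moved by more than 1.5-fold, with Smc4 the farthest above the line.

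The length used moved 13 of the 38 genes by more than 1.5-fold. The deposited value was the higher in 4 of them, Smc4, Prc1, Nuf2 and Kif23, and the lower in 9. Smc4 was divided by 626 bases, the length of Smc2os, against 4316 bases of its own, and had 673 and 512 RPKM as deposited in replicates 1 and 2 but 97.6 and 74.3 own-length RPKM. The 38 genes had a median of 36.6 own-length RPKM in replicate 1 and 29.6 in replicate 2, beside 5.002 and 5.349 for the 10353 genes of the whole table so treated. Their means spanned 17.4-fold, from Cenpf to Top2a. Subunits of the NDC80 complex, which assemble in equal numbers, spanned 7.79-fold as deposited and 1.80-fold per own length. The 4 matched subunits of condensin I spanned 32.3-fold as deposited and 3.84-fold per own length. These own-length spans rest on the multiple of 3 for Spc24 and of 2 for Ncapd2 and Ncaph. Between deposited and own-length means Spearman's rho was 0.82 (n = 38 genes).

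Many of the promoters shared sequence motifs that the choice of genes did not use. Promoter windows of 300 bases, 250 before and 50 after the annotated start, were taken from RefSeq (GRCm38.p6) and were found for 41 of the 50 genes. The cell cycle genes homology region (CHR, TTTGAA) is the element known to be bound by the DREAM and MYB-MuvB complexes, which repress such genes in quiescent cells and activate them in G2. CCAAT boxes are bound by NF-Y. On either strand, CHR was found in 30 of 41 windows (73.2%), against 18.1% of 27025 windows in all, and CCAAT in 31 of 41 (75.6%), against 37.9% of all. Among the 7935 windows of genes at 1 RPKM or more in both libraries, the shares were 11.98% for CHR and 39.4% for CCAAT. Both stood together in 26 of 41 windows, against 7.12% of all. A sequence typical of E2F sites (TTTCGCGC, TTTGGCGC or TTTCCCGC), the element of genes that peak earlier at the start of DNA replication, was found in 4 of 41 windows, namely Kif18a, Ncapg, Ncapd2 and Cdk1, against 1.91% of all and 3.96% of those of the genes at 1 RPKM or more in both libraries. Each motif was searched on its own, so matches on opposite strands and the end bases of neighbouring motifs may overlap.

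The following 6 promoters belong to the genes with the highest deposited means among those with both motifs, and are printed 5′ to 3′ on the strand of the gene to show how the motifs lie. Capitals mark the matches to CHR, to CCAAT and, in Cdk1, to an E2F-type sequence, each on either strand. The start is the base that follows the first 250 of each run.
Prc1, chr7:80294201-80294500, plus strand: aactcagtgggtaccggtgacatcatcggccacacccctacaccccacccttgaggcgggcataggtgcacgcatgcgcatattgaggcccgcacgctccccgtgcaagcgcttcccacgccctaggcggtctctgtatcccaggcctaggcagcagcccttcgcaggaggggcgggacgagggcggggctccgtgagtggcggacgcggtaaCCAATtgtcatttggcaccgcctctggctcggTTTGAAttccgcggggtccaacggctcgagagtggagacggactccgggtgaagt
Mki67, chr7:135716330-135716629, minus strand: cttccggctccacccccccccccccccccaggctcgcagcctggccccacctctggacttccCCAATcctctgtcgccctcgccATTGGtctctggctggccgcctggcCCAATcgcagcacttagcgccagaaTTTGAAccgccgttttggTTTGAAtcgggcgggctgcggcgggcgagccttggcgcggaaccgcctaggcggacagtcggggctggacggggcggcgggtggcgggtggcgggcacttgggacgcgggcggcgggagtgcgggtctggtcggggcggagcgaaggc
Top2a, chr11:99024140-99024439, minus strand: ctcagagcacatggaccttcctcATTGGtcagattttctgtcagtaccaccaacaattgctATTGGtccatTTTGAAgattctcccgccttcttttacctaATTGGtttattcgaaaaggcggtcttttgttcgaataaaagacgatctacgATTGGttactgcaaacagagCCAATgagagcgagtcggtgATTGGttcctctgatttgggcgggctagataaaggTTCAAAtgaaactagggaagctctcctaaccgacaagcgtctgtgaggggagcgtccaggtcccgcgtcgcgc
Ube2c, chr2:164769679-164769978, plus strand: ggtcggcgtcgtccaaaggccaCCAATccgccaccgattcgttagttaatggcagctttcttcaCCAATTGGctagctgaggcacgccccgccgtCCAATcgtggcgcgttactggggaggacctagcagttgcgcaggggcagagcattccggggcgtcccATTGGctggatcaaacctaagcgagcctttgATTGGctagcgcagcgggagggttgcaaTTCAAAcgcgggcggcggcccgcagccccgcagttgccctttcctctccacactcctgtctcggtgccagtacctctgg
Cenpa, chr5:30666636-30666935, plus strand: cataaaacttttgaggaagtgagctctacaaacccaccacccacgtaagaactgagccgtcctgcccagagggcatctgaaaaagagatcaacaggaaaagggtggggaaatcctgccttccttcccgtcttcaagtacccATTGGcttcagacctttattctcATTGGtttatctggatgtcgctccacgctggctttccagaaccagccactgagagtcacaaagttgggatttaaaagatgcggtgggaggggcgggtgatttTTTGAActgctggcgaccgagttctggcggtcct
Cdk1, chr10:69352863-69353162, minus strand: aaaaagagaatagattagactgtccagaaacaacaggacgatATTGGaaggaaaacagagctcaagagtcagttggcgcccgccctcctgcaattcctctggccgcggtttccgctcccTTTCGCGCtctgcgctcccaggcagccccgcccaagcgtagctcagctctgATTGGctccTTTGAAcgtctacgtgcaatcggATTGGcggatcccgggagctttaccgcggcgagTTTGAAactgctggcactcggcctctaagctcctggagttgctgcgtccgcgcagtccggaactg

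In these windows the CHR of Prc1 began 5 bases before the start, that of Cdk1 nearest the start 15 bases before it and that of Cenpa 16 bases after it. The Ube2c and Top2a windows held 6 CCAAT matches each, and that of Prc1 held 1. Over the 41 windows, CHR matches had a median distance of -5 bases from the start and CCAAT matches of -67 bases, and 66 of the 69 CCAAT matches began before the start. A CHR within 50 bases of the start occurred in 26 of 41 windows, against 4.92% of all. Bases after the start lay in an annotated transcript of the gene (GENCODE vM21) in 35 of the 41 windows, so the start is less certain in the others. Among the bases before the start alone, CHR at any distance occurred in 15 of 41 windows, against 16.3% of all. At least 2 CCAAT matches occurred in 20 of 41 windows, against 12.2% of all, and 12 of 41 had a pair 25 to 40 bases apart on the same strand, against 2.29% of all and 4.23% of those of the genes at 1 RPKM or more in both libraries. These last features were looked at after the positions were seen. Neither CHR nor CCAAT was found in the windows of Nuf2, Kif18a, Ncaph, Mad2l1, Pttg1 and Birc5, which says only that these letters are not in those 300 bases.

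**Figure D2:**
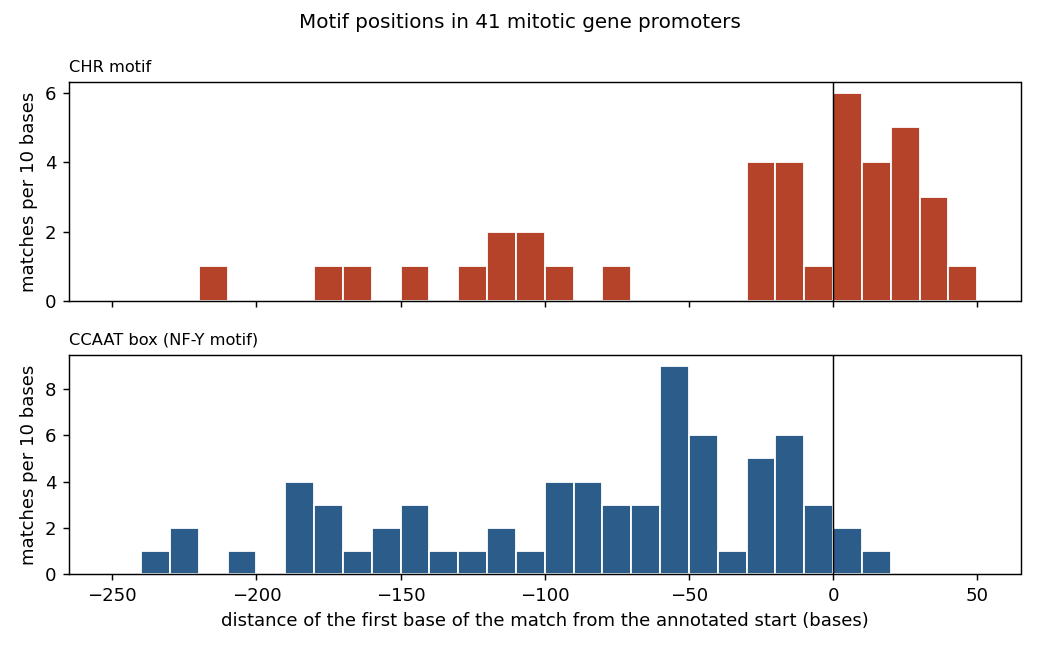
Number of motif matches per 10 bases against the distance of their first base from the annotated start, in the promoter windows of 41 mitotic genes; the line at 0 is the start. CHR matches gather around the start, with 28 of 39 within 50 bases of it, and CCAAT matches lie mostly before it.

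Genes that drive entry into mitosis had the highest median of the role groups with at least 3 own-length values. Of these genes, the values of Ccna2, Ccnb1 and Cdk1 rest on their place in the order alone. The 7 with an own-length value had medians of 72.9 RPKM in replicate 1 and 49.97 RPKM in replicate 2. Both medians are the values of Plk1, whose reads were taken as 5 times the smallest that fit (962 and 634). Of all 8 genes, 7 were higher in replicate 1. Such counts, here and below, stand beside 42 of the 50 genes and 55.9% of all genes. With 3 to 8 genes in a role they do not set one role apart. Cdk1, the catalytic kinase of mitosis, had 98.3 own-length RPKM in replicate 1 and 85.1 in replicate 2 (at least 8415 and 7009 reads). Its cyclin partner Ccnb2 had 85.2 and 73.1 RPKM, and Ccnb1, the other B-type cyclin, 71.2 and 49.8 RPKM. Ccnb1 thus differed more between the libraries (1.43-fold, counting interval 1.37 to 1.495) than Ccnb2 (1.16-fold, 1.11 to 1.22) or Cdk1 (1.15-fold, 1.12 to 1.19). The means of Cdk1 and the B-type cyclins lay within 1.52-fold of one another.

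Ccna2, cyclin A2, which acts from S phase to early mitosis, had 80.8 RPKM in replicate 1 and 65.6 RPKM in replicate 2. Plk1, the polo-like kinase needed for centrosome maturation and mitotic exit, had 72.9 and 49.97 own-length RPKM, and its 1.46-fold ratio shared the top place among the 50 genes with that of Ect2. Among the 50 genes, the phosphatases that activate CDK1 were Cdc25b and Cdc25c, which were lower and did not move together. Cdc25c had 9.21 and 7.23 RPKM and was higher in replicate 1, while Cdc25b had 15.0 and 19.8 RPKM and was lower in it (0.75-fold, counting interval 0.70 to 0.81). Foxm1, a transcription factor of G2 and M genes, could not be matched to a length. It had 26.6 RPKM in replicate 1 and 19.4 RPKM in replicate 2 as deposited, a ratio of 1.37, on at least 742 and 522 reads.

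**Figure D3:**
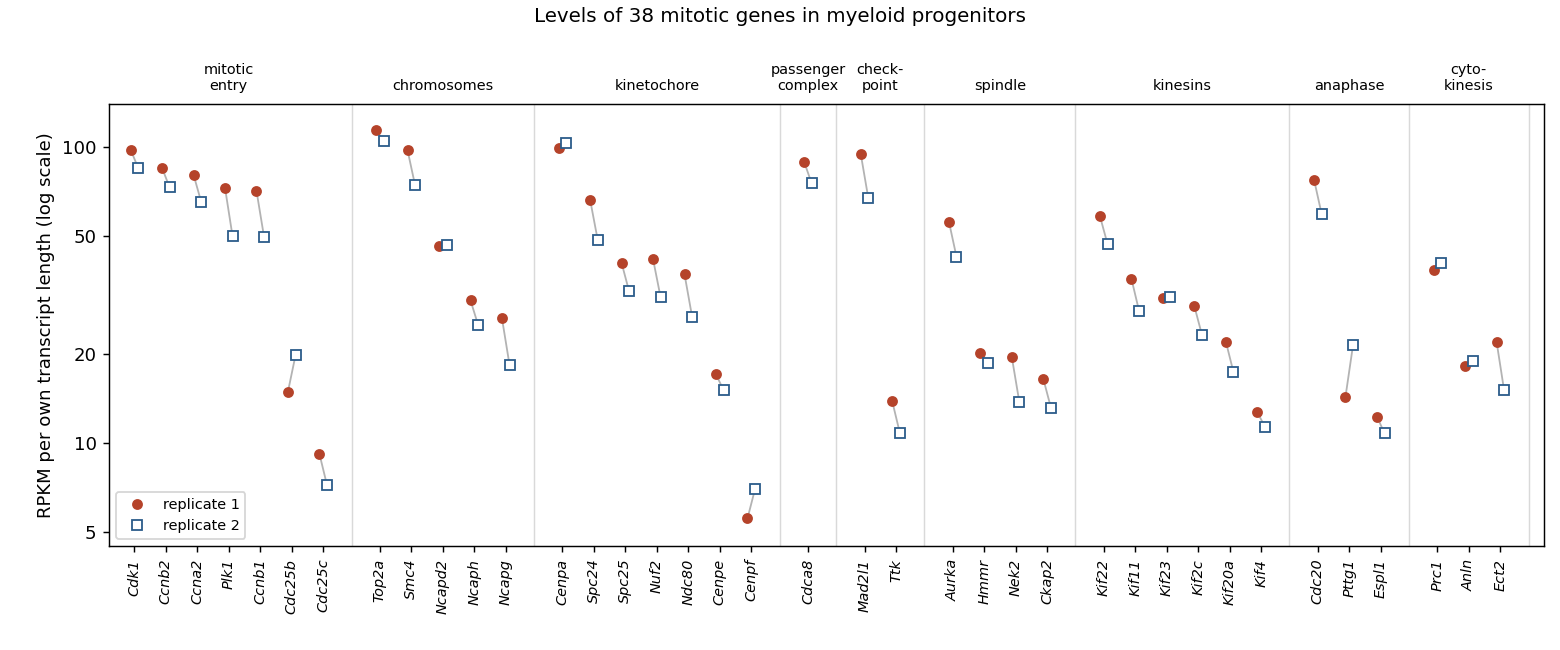
Own-length RPKM (log axis) of 38 mitotic genes, grouped by role and ordered by mean within a role; filled circles are replicate 1 and open squares replicate 2, 1 library each. Top2a and Cenpa stand at the top and Cenpf and Cdc25c at the bottom, and the circle lies above the square in most genes.

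Among genes that shape chromosomes, Top2a, the topoisomerase that untangles sister DNA, had the most reads of all 50 genes, 17810 in replicate 1 and 15827 in replicate 2. It had 114 and 105 own-length RPKM, the highest mean of the 38 genes, and its library values did not overlap those of Cenpa, the next in order. Smc4, an ATPase subunit of condensin, came next among them with 97.6 and 74.3 own-length RPKM and was 1.31-fold higher in replicate 1. Of the subunits that make the complex condensin I, Ncapd2 had 46.2 and 46.7, Ncaph, the kleisin that closes the ring, 30.4 and 25.1, and Ncapg 26.4 and 18.4 own-length RPKM. The reads of Ncapd2 and Ncaph were taken as 2 times the smallest that fit. The libraries differed for Ncapg (1.44-fold) but by less than counting error for Ncapd2 (0.99-fold, interval 0.96 to 1.03). Smc2, the partner of Smc4, had 50.6 and 44.0 RPKM as deposited, and its length could not be matched. The same holds for Mki67, the protein that coats mitotic chromosomes and is used as a proliferation marker, at 164 and 140 RPKM as deposited. Both were higher in replicate 1, Smc2 at 1.15-fold and Mki67 at 1.17-fold.

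The kinetochore genes fell into a high centromere histone, a middle group and low large proteins. Cenpa, the histone H3 variant that marks centromeres, had 99.05 RPKM in replicate 1 and 103 RPKM in replicate 2. The NDC80 complex, which binds the microtubule, stood in the middle. Spc24 had 66.5 and 48.7, Nuf2 41.9 and 31.1, Spc25 40.7 and 32.6 and Ndc80 37.2 and 26.8 own-length RPKM. All 4 of its subunits were higher in replicate 1, with log2 ratios from 0.30 for Spc25 to 0.46 for Ndc80. Ndc80, Nuf2 and Spc25 overlapped in their library values while Spc24 stood above them. The level of Spc24 rests on reads taken as 3 times the smallest that fit. The kinesin Cenpe, which carries chromosomes to the spindle equator, had 17.1 and 15.1 RPKM. Cenpf, a large protein of the outer kinetochore, had 5.58 and 7.01 RPKM, the lowest mean of the 38 genes, and was lower in replicate 1 (0.80-fold, interval 0.75 to 0.85).

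All 4 genes of the chromosomal passenger complex, which corrects faulty attachments, were higher in replicate 1. Cdca8, borealin, had 89.3 own-length RPKM in replicate 1 and 75.5 in replicate 2. The other members were the kinase Aurkb, its activator Incenp and the small adaptor Birc5 (survivin), and their lengths could not be matched. As deposited, Aurkb had 151.6 and 118.7 RPKM, Incenp 160 and 117 RPKM and Birc5 73.6 and 61.7 RPKM. Their ratios were 1.28, 1.36 and 1.19, beside 1.18 for Cdca8.

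The 4 checkpoint genes were also all higher in replicate 1, except that Bub1b turned to a log2 ratio of -0.01 when all genes were centred. Mad2l1, the MAD2 protein that blocks CDC20, had 94.8 own-length RPKM in replicate 1 and 67.2 in replicate 2, a ratio of 1.41. Ttk, the MPS1 kinase that starts checkpoint signalling, had 13.9 and 10.9 own-length RPKM, a ratio of 1.28 at a much lower level. Bub1, a kinetochore kinase, had 21.0 and 18.1 RPKM as deposited, a ratio of 1.16. Its relative Bub1b (BUBR1), a part of the inhibitor of the anaphase-promoting complex, had 18.9 and 18.4 RPKM as deposited, a ratio of 1.03 with a counting interval of 0.97 to 1.09.

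Of the spindle regulators, all 5 were higher in replicate 1, although Hmmr turned from a log2 ratio of 0.11 to -0.09 when trends with GC content and length were removed. Aurka, the kinase of spindle poles, had 56.1 own-length RPKM in replicate 1 and 42.7 in replicate 2. The centrosome kinase Nek2 had 19.5 and 13.7, Hmmr, a spindle pole protein, 20.2 and 18.6, and the microtubule-associated Ckap2 16.5 and 13.2 own-length RPKM. Aurka stood above the other 3, and the library values of Nek2 overlapped those of both Hmmr and Ckap2. Tpx2, which activates Aurora A on the spindle, had 255 and 207 RPKM as deposited, the second highest deposited mean of the 50 genes, but the length used was 447 bases or a whole multiple of it and could not be matched, so its place in the order is not known.

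The kinesin motors had medians of 30.02 own-length RPKM in replicate 1 and 25.7 in replicate 2 over 6 genes, and 7 of all 8 were higher in replicate 1. Kif22, which pushes chromosome arms towards the equator, had 58.4 own-length RPKM in replicate 1 and 47.1 in replicate 2. Kif11 (Eg5), which drives the poles apart, had 35.9 and 28.1, Kif2c (MCAK), a microtubule depolymerase, 29.0 and 23.2, and Kif4, the chromokinesin, 12.8 and 11.4 own-length RPKM. The motors of the late spindle differed from one another in their ratio. Kif23 (MKLP1), of the centralspindlin complex, had 31.0 and 31.2 own-length RPKM, 0.99-fold, a direction that turned, as for Ncapd2, when sums without the 10 highest genes were made equal, whereas Kif20a (MKLP2) had 22.0 and 17.4, 1.26-fold. Kif18a, which damps chromosome movements, and Kif20b, a motor of the spindle midzone, could not be matched to a length, and had 5.67 and 4.58 RPKM and 27.0 and 20.04 RPKM as deposited.

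The 4 genes of the metaphase to anaphase transition moved in different directions. Cdc20, the activator of the anaphase-promoting complex, had 77.8 RPKM in replicate 1 and 59.7 RPKM in replicate 2, 1.30-fold higher. Ube2c, an enzyme that adds ubiquitin with that complex, had 135 and 115 RPKM as deposited, a ratio of 1.18, with no length matched. Espl1, separase, the protease that cuts cohesin, had 12.3 and 10.8 RPKM. Pttg1, securin, the inhibitor of separase, had 14.4 and 21.5 own-length RPKM. At 0.67-fold (counting interval 0.61 to 0.74) its ratio was the lowest of the 50 genes, while separase was 1.14-fold higher in replicate 1. On the log2 scale with 1 RPKM added Pttg1 was at -0.51, which falls short of a 1.5-fold difference.

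Genes of cytokinesis were the only role group in which most members were not higher in replicate 1. Prc1, which bundles the microtubules of the central spindle, had 38.6 own-length RPKM in replicate 1 and 40.6 in replicate 2. Anln, anillin, the scaffold of the contractile ring, had 18.2 and 19.0 own-length RPKM. Their ratios were 0.95 and 0.96. Ect2, which activates RhoA at the cleavage site, had 22.0 and 15.1 RPKM, a ratio of 1.46. With 3 genes this group is too small for more than these values.

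**Figure D4:**
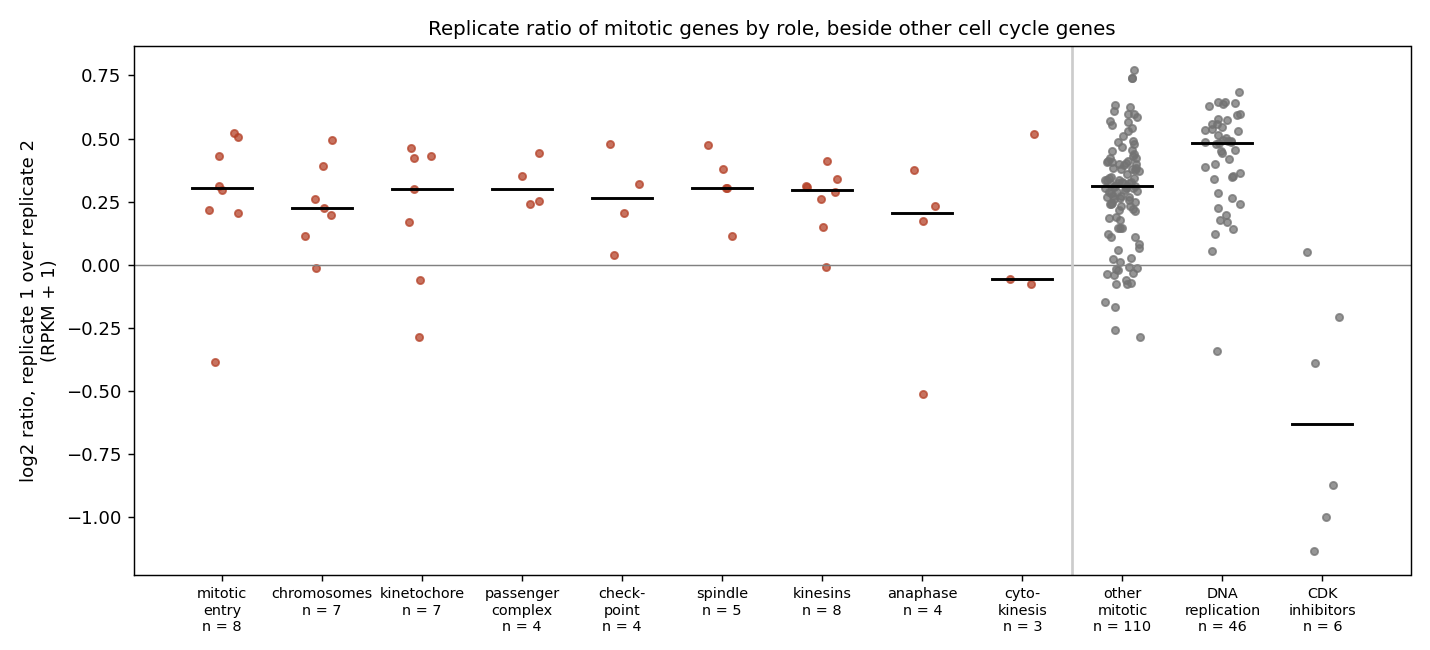
Log2 ratio of replicate 1 over replicate 2 (RPKM + 1) for each gene, with a bar at the median of each group; the 9 role groups of the 50 mitotic genes are at the left of the line and 3 further gene lists at the right. Most mitotic genes lie between 0 and 0.5, DNA replication genes higher, and CDK inhibitors mostly below 0.

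Most other genes of the mitotic pathway were also higher in replicate 1. Of 110 further genes of mitotic entry, kinetochore, kinesins, checkpoint, anaphase-promoting complex, spindle, condensin II and cytokinesis, all 110 were at 1 RPKM or more in both libraries. Replicate 1 was higher for 95 of them, with a median log2 ratio of 0.31, and it exceeded replicate 2 by 25% or more in 52 of them, with 0 the other way. The 50 genes stood above these in level. Their median of log2(RPKM + 1) exceeded that of the 110 genes by 0.46 ± 0.08 (SD, n = 2 libraries) as deposited over all of them. Over the 38 and 81 genes with own lengths it did so by 0.44 ± 0.10 as deposited and by 0.96 ± 0.04 per own length.

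Genes of DNA replication, which act in the preceding S phase, showed the same direction with a higher median ratio. Of 46 such genes, 45 were higher in replicate 1, Orc5 being the exception, and the median log2 ratio was 0.48 beside 0.29 for the mitotic genes. In 35 of the 46 the excess of replicate 1 was 25% or more, and Orc5 alone passed it the other way. The direction of the difference in level, mitotic minus replication genes, was not stable. The difference of medians of log2(RPKM + 1) was -0.23 ± 0.04 as deposited over all 50 and 46 genes (SD, n = 2 libraries), and turned to 0.19 with means in place of medians. Over the 38 and 31 genes with own lengths it was -0.58 ± 0.01 as deposited and 0.09 ± 0.02 per own length. CDK inhibitors ran the other way, with 1 of 6 detected genes, Cdkn2c, higher in replicate 1. Cdkn1a, p21, which stops CDK2 and CDK1, had 52.0 RPKM in replicate 1 and 105 RPKM in replicate 2, and Cdkn1b, p27, had 29.0 and 38.3 RPKM.

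The libraries also differed in markers of mature cells, and in these bulk samples fewer cells of a type and less RNA per cell cannot be told apart. All 9 granulocyte progenitor markers were at 1 RPKM or more in both libraries and summed to 5032 RPKM in replicate 1 and 3932 RPKM in replicate 2 as deposited. The 6 that were higher in replicate 1 include Mpo at 1587 and 1164 RPKM, and the 3 that were lower in it were Cebpa (61.3 and 66.3 RPKM), Kit (21.2 and 26.2 RPKM) and Cd34 (14.5 and 19.5 RPKM). All 10 monocyte and macrophage markers were lower in replicate 1, summing to 776 RPKM in it and 3558 RPKM in replicate 2, and so were 7 of 7 mast cell markers whose means reached 1 RPKM, 277 against 1446 RPKM over the list of 8. All 6 neutrophil markers found were lower in replicate 1 as well (9037 against 12145 RPKM), and both basophil markers (992 against 1948 RPKM). These sums are of deposited values and so carry the lengths described above, whereas the direction of each gene does not. The sums also weigh the highest genes most. By median log2 ratio the lists stood at -5.54 for the 7 mast cell markers and -1.90 for monocyte and macrophage markers. Neutrophil markers stood at -0.69, basophil markers at -0.73 and granulocyte progenitor markers at 0.13. Lymphoid markers were near 0 (sums of 0.43 and 0.26 RPKM, with Cd3e, Ms4a1 and Pax5 at 0 in both) and erythroid markers summed to 2.14 and 4.04 RPKM, with Hba-a1 and Hbb-b1 listed at 0. The part of these cells in the difference of the mitotic genes was not tested. Of the 50 genes, 11 overlap another annotated gene (GENCODE vM21), 10 of them on opposite strands, and the strand setting of the counting is not given in the sources used here. Among these are Cdc20 with Elovl1, Ccna2 with Exosc9 and Prc1 with Rccd1.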

How the data were processed

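RNA of 2 libraries of 1 group was sequenced with the TruSeq kit, per the labels' protocols. The submitters' processing notes name mm9, Trimmomatic 0.32, TopHat2, HTSeq and edgeR, without settings. The authors deposited RPKM values, 1 column per library, assigned here by names that match the sample titles. Of 24015 rows, 27 with names in the form of dates were left out.

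The size ratio of the libraries, 1.04 for replicate 1 over replicate 2, came from 476 genes with equal reads, and the scale from 46 of 1265 genes with 1 transcript (GENCODE vM21). Whole reads were found for 6.6% of 1000 shuffled pairs of values. Sizes may include a normalisation factor. Reads are the smallest that fit, unless the length matched a transcript of the gene at the same place in the other order, within 1% for multiples up to 8 and 5% for the smallest. For the 12 unmatched genes, and for Ccna2, Ccnb1, Cdk1 and Cenpa, the true reads are those or a whole multiple, so their intervals are the widest that apply. Own lengths came from the row that carried them, otherwise from the longest CCDS transcript. Ratios of single genes use no pseudocount, and intervals cover counting error only, since reads have no molecular identifiers.

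No test was run. The 50 genes, lists and rules were chosen with earlier results of these data known; any of the 50 may be named, and of other lists the highest, the lowest and those behind small counts. Own lengths were chosen after seeing the data. Alternatives were other pseudocounts, filters and scalings, removal of GC and length trends, and leaving out a library. Read recovery was tested on simulated data. Python 3.11.15, pandas 2.3.3, NumPy 2.4.6, SciPy 1.17.1 and matplotlib 3.10.9 were used. Promoter coordinates are RefSeq's on GRCm38.p6, not the authors' build.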

Additional observations from a re-analysis of the deposited data

How the results depend on the processing

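Of 49 alternative values for 10 results, 39 stayed within the spread between the libraries, or within 1.5 times for counts. Leaving out a library could not move a value beyond these limits, and a filter at a mean of 5 RPKM removed none of the 50 genes. Dropping the filter at a mean of 1 RPKM, or detection at 0.1 RPKM, could not change a value either. Those alternatives are counted among the 39 and say nothing of stability. For the median log2 ratio the limit follows from the ratio itself and is wide, so staying within it says little. The median log2 ratio of the 50 genes, replicate 1 over replicate 2, was 0.29. It lay between 0.20 (GC and length trends removed) and 0.34 (equal sum without the 10 highest genes). Under the scalings tried, 41 to 44 genes were higher in replicate 1. The 44, with equal sums without the 10 highest genes, stood beside 60.6% of all genes. With all genes centred 41 stood beside 50%, and with equal upper quartiles 41 beside 51.4%. With GC and length trends removed it was 41, and the share of all genes was not counted. The count of genes in which replicate 1 exceeded replicate 2 by 25% or more was 17, against 19.4% of all genes. It came to 26 with equal sums without the 10 highest genes, against 24.0% of all genes. With GC and length trends removed it came to 9, against 14.1% of all genes. The median level of 24.6 RPKM over both libraries was 34.0 by the mean of log2(RPKM + 1), 33.1 with own lengths, and 20.7 to 28.5 with 1 library left out. The difference from replication genes, -0.23, turned to 0.19 with means in place of medians and to 0.087 with own lengths, was -0.58 as deposited over only the genes with own lengths, and lay between -0.26 and -0.20 with 1 library left out. That from other mitotic genes, 0.46, was 0.84 with means, 0.96 with own lengths and 0.44 as deposited over the genes with own lengths, and 0.40 to 0.51 with 1 library left out. CHR was found in 15 instead of 30 windows when only bases before the start were searched. For the ratios and counts, the values with own lengths use all 50 genes, with the 12 unmatched ones at their smallest reads. For the levels and the differences between gene lists, they use fewer genes as well as other lengths. Against deposited values of the same genes, those levels and differences differ by construction in the length alone. The cause of the other changes was not tested. No paired analysis was possible because there is 1 group. With 2 libraries no difference between them can be tested. The genes had 404 to 17810 reads, and for the 5 genes whose counting interval spans 1 a difference was not detectable at this depth.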
